A study of Homo sapiens with 112 samples.

Results

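Gene expression was compared between VCaP cells treated with the synthetic androgen R1881 and VCaP cells treated with the vehicle DMSO for 22 h. The comparison comprised 17 of the 112 RNA-seq libraries of the study, 9 with 1 nM R1881 and DMSO and 8 with DMSO alone. They were chosen by the treatment, time point and cell line in the sample labels and by no measured value. VCaP is an established line from a human prostate cancer metastasis, in which a fusion joins the start of the androgen-responsive TMPRSS2 gene to the ERG oncogene. Before treatment, the cells of all 17 libraries had spent 2 days in hormone-depleted medium, whose serum (10%) had been stripped with charcoal. The DMSO group therefore represents cells without added androgen rather than routinely grown cells. All libraries of both groups come from 1 cell line, and the labels do not say how the replicates were obtained. The p-values rest on the spread between libraries within groups, estimated from all 55 VCaP libraries in 8 groups. The other libraries of the study are VCaP and LAPC4 cells at 8 or 22 h, some with the inhibitor darolutamide, and 20 of them, 10 with DMSO and 10 with R1881 for 8 h in VCaP cells, serve below as an earlier time point.

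Androgens enter the cell and change the transcription of their target genes, in part through palindromic DNA elements that steroid receptors bind. In the prostate they maintain the secretory luminal cell, which makes proteases, acid phosphatase and glycoproteins for the seminal fluid, and they drive the growth of most prostate cancers. Secretion on this scale needs the endoplasmic reticulum (ER), where new proteins are folded, and the COPII and COPI vesicles that carry them to and from the Golgi. Androgens also raise lipid synthesis in this tissue, and they lower the enzymes that make or inactivate them.

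Of 58684 genes in the table, 19266 had at least 10 reads in at least 4 VCaP libraries and were tested. Levels are given as CPM, the reads of a gene per 1000000 reads of its library, scaled by TMM, a method that corrects for differences in RNA composition, and fold changes are log2 values of R1881 minus DMSO. A gene is said to have risen or fallen where its Benjamini-Hochberg adjusted p in the quasi-likelihood test of edgeR was under 0.05. By this rule 77.4% of the tested genes changed, 37.4% upward and 40% downward, so a call alone says little about any one gene. These were 7201 genes up and 7709 down, and with library totals in place of TMM they were 6115 up and 8854 down. An absolute log2 fold change above 1 was added to the rule for 23.9%, 9.52% upward and 14.3% downward, and the CPM of the groups did not overlap for 46.8%. The median over all tested genes was -0.03, and the shares below are to be read against these values.

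The libraries held 12951648 to 21845652 reads in genes with DMSO and 15798498 to 22198990 with R1881. The first principal component carried 77.3% of the variance and separated the groups, with scores of -76.3 to -71.8 for DMSO and 63.8 to 68.1 for R1881. Mean correlations of log2 CPM were 0.988 to 0.992 within and 0.932 to 0.939 between the groups. On the second component, with 5.54% of the variance, replicate 1 with DMSO (38.1, the next 17.6) and replicate 3 with R1881 (40.4, the next 11.9) lay apart from their groups, and they had the lowest mean correlation within them. Without these libraries 14740 genes were called, 7060 up and 7680 down, and of the genes named here KLF9 lost its call. Scaling by library totals lowered the median of all genes by 0.11 to -0.14, and small changes in either direction depend on this choice. Of the luminal markers, KRT8, KRT18, KRT19, EPCAM and 3 others, all 7 rose, with a summed share of the reads of 0.112 to 0.119% with DMSO and 0.191 to 0.228% with R1881. Leukocyte markers were too low to test, with CD3E, CD68 and MS4A1 at 0 in all 17 libraries, as were the basal marker KRT5, the endothelial marker CDH5 and the fibroblast marker COL1A2. Other markers of these types were tested, 4 basal, 1 endothelial and 4 fibroblast, and some of them changed, as described below.

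Among the genes that rose past a log2 fold change of 1, 442 passed 2, 148 passed 3 and 37 passed 5. Among those that fell, 910 passed 2, 399 passed 3 and 97 passed 5 in size, so large falls outnumbered large rises. The largest rises and falls described here were taken from genes whose mean CPM lay above the median of all genes and whose groups did not overlap.

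**Figure D1:**
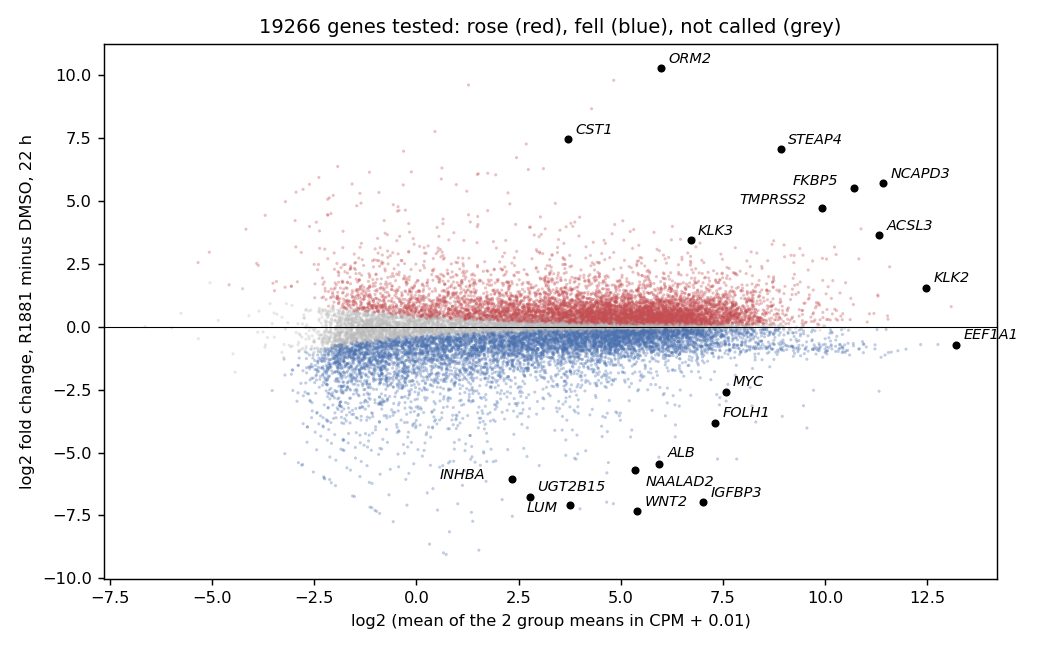
Log2 fold change with R1881 at 22 h (vertical axis) against the mean level in CPM (horizontal axis, log2 scale) for the 19266 genes tested, with genes that rose in red, genes that fell in blue and genes that were not called in grey. The named genes are marked in black, from ORM2 at 10.27 to WNT2 at -7.33, and both clouds of calls extend over the whole range of levels.

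The largest rise belonged to the orosomucoids, acute-phase glycoproteins that carry lipophilic molecules in plasma. ORM2, on chromosome 9 (GRCh38, positions 114329869 to 114333251), had 0 to 6 reads per library with DMSO and 1783 to 2658 with R1881. Its level was between 0 and 0.270 CPM, with a median of 0.102, in the DMSO group and between 117 and 137 CPM, with a median of 126, in the R1881 group. Its neighbor ORM1, a near-identical copy that could share reads with it, moved from a highest level of 0.180 CPM to a lowest of 51.8 CPM. The log2 fold changes were 10.27 ± 0.13 (SE) for ORM2 and 9.79 ± 0.16 for ORM1, both at levels near 0 with DMSO, where the size depends on a few reads. CST1, a secreted inhibitor of cysteine proteases, rose by 7.45 ± 0.16 from at most 5 reads per library. STEAP4, NCAPD3, FKBP5 and TMPRSS2 followed, and the long noncoding RNA LINC00920 and the clone-named gene CTD-2224J9.8 were also among the 10 largest rises with 4.35 ± 0.12 and 4.21 ± 0.07.

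The 10 largest falls were led by the gene of a secreted signal. WNT2, a secreted WNT ligand on chromosome 7, lay between 78.6 and 89.0 CPM with DMSO and between 0.185 and 0.842 CPM with R1881, and its log2 fold change was -7.33 ± 0.09. The matrix protein gene NOV fell by 7.24 and LUM, which encodes the collagen-binding proteoglycan lumican, fell by 7.07. The orphan receptor gene GPR85 fell by 7.03, and SHH, the hedgehog ligand, had 657 to 1072 reads per library with DMSO but 5 to 10 with R1881. IGFBP3 (-6.98), the long noncoding RNA MIR2052HG (-6.18), the membrane protein gene LRRN1 (-5.81), the peptidase gene NAALAD2 (-5.70) and the albumin gene ALB (-5.45) were the others. For all of these falls the highest R1881 library lay below the lowest DMSO library.

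In absolute terms the largest rises in mean CPM were those of KLK2, NCAPD3, ACPP, ACSL3 and NDRG1. ACPP, which encodes prostatic acid phosphatase, had 5891, 6248 and 6833 CPM as the lowest, median and highest DMSO values and 10238, 10911 and 12275 CPM with R1881. NDRG1, a stress- and androgen-responsive gene of uncertain molecular function, went from 899 to 1060 CPM to 4873 to 5400 CPM. Among the largest falls in mean CPM were EEF1A1, a translation elongation factor, and the ribosomal protein gene RPLP0. EEF1A1 lay between 11015 and 12366 CPM with DMSO and between 6801 and 7647 CPM with R1881. Its pseudogenes EEF1A1P5 and EEF1A1P6 had the same log2 fold change of -0.71, and reads shared between these copies cannot be assigned to one of them.

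**Figure D2:**
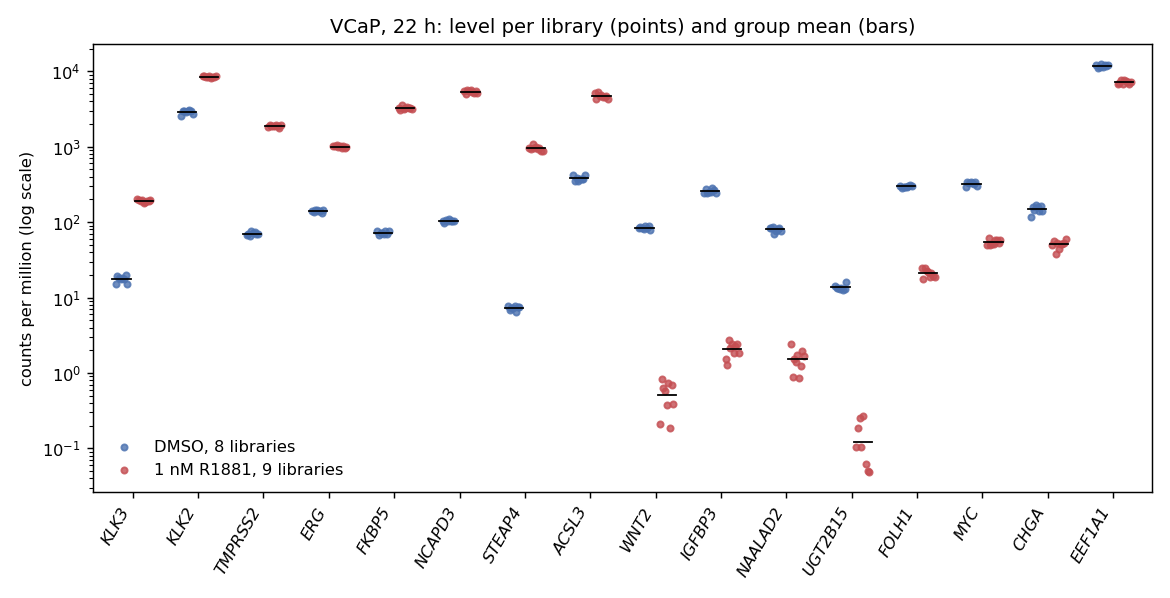
Level of 16 genes in each library in CPM (log scale), with 8 DMSO libraries in blue and 9 R1881 libraries in red and bars at the group means. The groups are apart for every gene shown, from KLK2 with 8159 to 8743 CPM in the R1881 group to UGT2B15, where 1 R1881 library at 0 is outside the log axis.

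The secreted proteases and proteins of the luminal cell had the highest median of the lists, the cell type markers left aside. The list was drawn up with earlier results of these data known and includes ORM2, so its rank is only a description. Of the 29 genes listed, 13 were too low to be tested. Of 16 members tested, 12 rose, 11 of them past a log2 fold change of 1, and the trypsin inhibitor gene SPINK1 and NPY fell. The median log2 fold change was 2.09, and the members together took 0.993 to 1.05% of the reads with DMSO and 2.22 to 2.33% with R1881. KLK3 encodes prostate-specific antigen (PSA), a protease that liquefies semen and serves as the blood marker of prostate cancer. It was measured at 14.9, 17.8 and 19.98 CPM as the lowest, median and highest DMSO values and at 177, 190.0 and 204 CPM with R1881. The groups were far apart, and the log2 fold change was 3.44 ± 0.07. The neighboring protease gene KLK2 lay between 2588 and 3023 CPM with DMSO and between 8159 and 8743 CPM with R1881, a log2 fold change of 1.56 ± 0.03. These paralogs resemble each other, and some reads may be shared. TMPRSS2, a membrane protease, rose by 4.73 ± 0.04 from a median of 69.9 to 1880 CPM. ERG, which takes its promoter from TMPRSS2 in these cells, rose from 132 to 147 CPM to 971 to 1067 CPM, by 2.84 ± 0.03. The secreted neuropeptide gene NPY was among the exceptions with -0.27, and its groups overlapped.

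The promoters of KLK3 and KLK2 are printed because they show an element of the kind that binds steroid receptors at different distances from its consensus. The 250 bases before each start were taken from RefSeq (GRCh38.p14), for KLK3 chr19:50854665-50854914 and for KLK2 chr19:50873189-50873438, both on the plus strand. Capitals mark the window closest to the palindrome AGAACA, 3 free letters, TGTTCT, which reads the same on both strands and has 12 fixed letters.
KLK3 promoter: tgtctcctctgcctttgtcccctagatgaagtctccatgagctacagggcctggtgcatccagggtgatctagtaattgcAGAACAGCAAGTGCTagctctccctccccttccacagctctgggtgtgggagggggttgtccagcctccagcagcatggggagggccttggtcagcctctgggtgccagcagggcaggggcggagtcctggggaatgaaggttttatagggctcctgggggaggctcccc
KLK2 promoter: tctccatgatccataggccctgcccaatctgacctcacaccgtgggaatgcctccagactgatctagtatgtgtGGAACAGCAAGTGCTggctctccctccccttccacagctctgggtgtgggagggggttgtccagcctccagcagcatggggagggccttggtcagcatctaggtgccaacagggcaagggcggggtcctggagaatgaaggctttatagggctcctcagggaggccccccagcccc
The KLK3 window begins 170 bases before the start and differs from the consensus at 2 fixed letters. The KLK2 window begins at base 176 and differs at 3, and the surrounding sequence is closely alike. A window with at most 2 differences, as in KLK3, was found in 1.19% of the 27305 promoters in the table. Among the 11529 promoters of tested genes the share was 0.494%. The share with at most 3 differences, as in KLK2, was not computed. These shares say nothing of elements farther away. ORM2 had no entry in the table.

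Genes known to respond to glucocorticoids and androgens alike were examined next, because both hormones can act through the same DNA elements. Of 25 such regulators, 20 rose and 3 fell, with a median of 1.22, and 15 rose past 1. FKBP5, a cochaperone that tunes steroid receptor activity, had 67.3, 71.3 and 76.2 CPM as lowest, median and highest DMSO values and 3031, 3273 and 3579 CPM with R1881. Its log2 fold change was 5.49 ± 0.04. NCAPD3, a condensin subunit, rose further, by 5.69 ± 0.04, from at most 109 CPM to at least 4983 CPM. ERRFI1, an inhibitor of the epidermal growth factor receptor, rose by 3.17 ± 0.05 and the zinc finger repressor gene ZBTB16 by 1.62 ± 0.12. The classical glucocorticoid target TSC22D3 (GILZ) fell by 0.70, and so did BCL6 by 1.03 and KLF9 by 0.21, which did not pass without the filter on low counts or without the libraries that lay apart. The chaperones that hold steroid receptors ready for ligand moved little. Of 16, 13 rose and HSP90AB1 fell by 0.11, with no value past 1, and STIP1 and DNAJB1 had the largest rises with 0.68 and 0.65. HSP90AA1 rose by 0.28, while FKBP4 had 0.03, which became a fall of 0.08 with library totals. With that scaling 8 rose and 3 fell.

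Other condensin and cohesin subunits did not follow NCAPD3. Of the 13 tested, 3 rose and 5 fell, and besides NCAPD3 no member passed an absolute log2 fold change of 1. SMC1A and STAG1 rose by 0.47 and 0.24, and NCAPG and STAG2 showed the largest falls with 0.40 and 0.33. With library totals the number of falls was 8.

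Enzymes of androgen synthesis and inactivation had one of the lowest medians. All 18 members tested changed, 12 downward and 6 upward, with a median of -2.24. Past a log2 fold change of 1 in size, 10 fell and 2 rose. The list's summed share of the reads did not fall, with 0.0352 to 0.0381% with DMSO and 0.0369 to 0.0407% with R1881. The UDP-glucuronosyltransferases UGT2B15 and UGT2B17 attach glucuronic acid to androgens and prepare them for excretion. UGT2B15 had 171 to 354 reads per library with DMSO and 0 to 5 with R1881, and UGT2B17 had 82 to 161 and 0 to 3. The log2 fold changes were -6.75 ± 0.18 and -6.14 ± 0.21. AKR1C3, which reduces androgen precursors to testosterone, fell by 4.11 ± 0.08, and HSD17B6, an oxidizing hydroxysteroid dehydrogenase, fell by 2.74 ± 0.07. UGT2B28 and UGT2B11 went the other way with 2.32 and 1.68, but their median levels with R1881 were 0.514 and 1.02 CPM. Members of the UGT2B and AKR1C families are close copies, so that part of their reads may have been assigned to the wrong member.

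The metalloreductases reduce iron and copper before uptake. STEAP4 had 6.52, 7.37 and 7.75 CPM as the lowest, median and highest DMSO values and 877, 949 and 1095 CPM with R1881, a log2 fold change of 7.04 ± 0.06. STEAP1 and STEAP2, which are known as prostate surface antigens, rose by 0.51 and 0.64. In the whole list of metalloreductases and metal transporters, 21 of 34 rose and 7 fell, with a median of 0.48. The ER and Golgi zinc transporter gene SLC39A7 rose by 1.82 ± 0.03, and SLC30A2, a zinc transporter of secretory vesicles, by 2.44 ± 0.23 from below 1 CPM. The manganese exporter gene SLC30A10 fell by 5.14 to at most 2 reads per library, the zinc transporter gene SLC30A4 by 1.02 and the ferritin light chain gene FTL by 1.01.

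Glutamate carboxypeptidases fell throughout, 4 of 4 tested, with a median of -3.86. FOLH1 encodes prostate-specific membrane antigen (PSMA), the target of imaging and radioligand therapy. It lay at 282, 296 and 313 CPM with DMSO and at 17.5, 21.3 and 24.8 CPM with R1881, a log2 fold change of -3.82 ± 0.06. Its copy FOLH1B fell by 3.90 and may share reads with it, NAALADL2 fell by 1.54, and NAALAD2 was named above. Neuroendocrine and neuronal genes mostly fell as well, 13 of 18 against 2 that rose, with a median of -0.63. CHGA, the granule protein chromogranin A, fell by 1.54 ± 0.09 from a median of 151 to 51.9 CPM, and ENO2 by 1.00. The adhesion protein gene NCAM1 fell by 2.64 and the retrotransposon-derived PEG10 by 2.29. The members that rose were INSM1, a transcription factor of neuroendocrine cells, with 1.63 and the synaptic vesicle gene SYP with 0.96.

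Lineage transcription factors of the prostate changed in both directions, with 13 of 22 up, 7 down and a median of 0.22. The pioneer factor gene FOXA1 rose by 0.18 and HOXB13 by 0.25, with overlapping groups for HOXB13, which did not pass with library totals. The epithelial ETS factor gene SPDEF had the largest rise, 2.40 ± 0.21, and the widest spread within groups, from 59.2 to 158 CPM with DMSO and from 327 to 825 CPM with R1881. CREB3L4, a membrane-bound factor of the ER, rose by 1.38. GATA2 fell by 1.23 ± 0.09, from 231 to 366 CPM to 109 to 153 CPM, and HOXD13 and NR2F1 fell by 1.39 and 0.95 at levels near 1 CPM. Among ETS genes and the feedback inhibitors of ERK signaling, 8 of 17 rose and 7 fell. SPRY1 and PHLDA1, which dampen receptor tyrosine kinase signaling or mark its activity, fell by 1.37 and 1.47, and ETS2 by 1.33. FOS and ETV4 rose by 1.84 and 1.48 below 2 CPM.

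In the insulin-like growth factor (IGF) axis, 8 of 13 members fell and 3 rose, with a median of -0.81. The list's summed share of the reads was higher with R1881 all the same, at 0.116 to 0.121% against 0.0824 to 0.0968% with DMSO. The growth factor receptor gene IGF1R rose from 237, 249 and 256 CPM to 926, 936 and 972 CPM, by 1.92 ± 0.03, and the clearance receptor gene IGF2R by 0.81. The ligand gene IGF1 rose from at most 2 to at most 9 reads per library. Binding proteins, which hold the ligands in the medium, were among those that fell. IGFBP3 went from a median of 253 to 2.14 CPM, IGFBP5 fell by 2.95 and IGFBP2 by 1.51.

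WNT ligands and feedback genes fell in 17 and rose in 6 of 27 cases, with a median of -0.50. After WNT2, the largest falls among the ligand genes were those of WNT2B, which fell by 3.42, and WNT10B, which fell by 3.03, whereas WNT7B rose by 1.06. AXIN2, the usual readout of the pathway, was lower by 0.24 with overlapping groups, and the pathway's DNA-binding factor LEF1 had -0.06, which did not pass the test. TCF7, a related factor, rose by 1.69, and the stem cell receptor gene LGR5 by 1.77 from at most 7 reads per library. For TGF-beta and bone morphogenetic protein (BMP) signaling, 21 of 32 members fell and 10 rose, with a median of -0.67. The list's summed share of the reads was nevertheless higher with R1881, at 0.262 to 0.267% against 0.176 to 0.184% with DMSO. INHBA, the activin subunit, went from 8.83 to 11.6 CPM to at most 0.315 CPM and fell by 6.04 ± 0.14. BMP2 and the latent TGF-beta binding protein gene LTBP1 fell by 3.60 and 3.54, and the inhibitory SMAD7 by 0.90. PMEPA1, a feedback inhibitor of TGF-beta signaling that androgen is known to raise, rose by 1.31 ± 0.02, the receptor gene BMPR1B by 2.88 ± 0.05 and the ubiquitin ligase gene SMURF1 by 1.10. In the PI3K, AKT and mTOR list, 14 of 24 rose and 7 fell, with a median of 0.23. The growth kinase genes MTOR and AKT1 rose by 1.19 and 1.04, the phosphatase gene INPP4B by 0.40, and the kinase inhibitor gene PIK3IP1 fell by 3.76 ± 0.17.

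**Figure D3:**
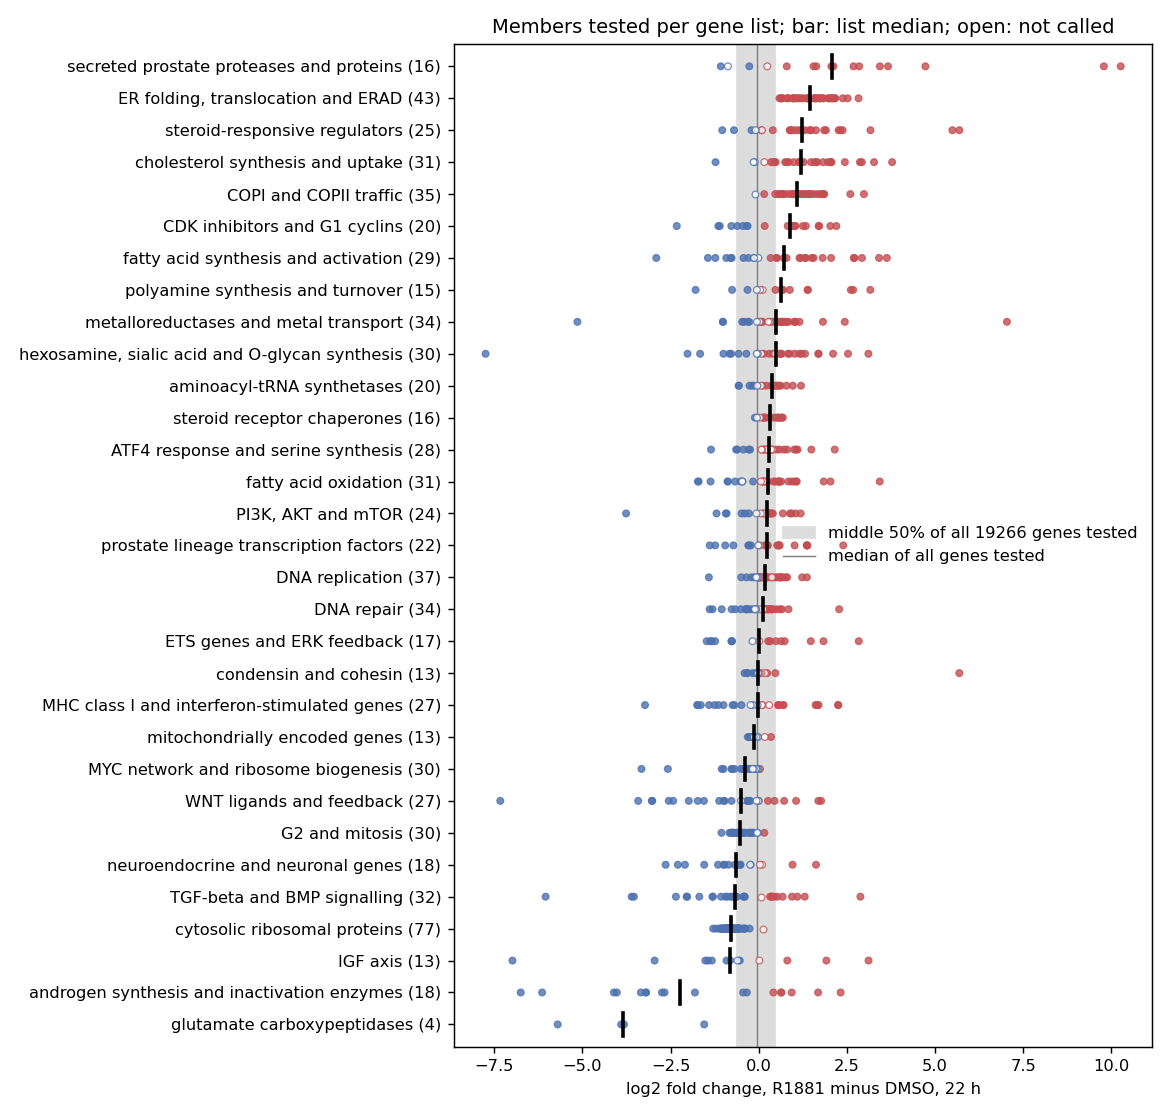
Log2 fold change with R1881 at 22 h for each tested member of 31 gene lists, with the number of members in parentheses, filled points for genes that passed the test and a bar at the list's median. The grey band is the middle 50% of all tested genes, and every member of the ER list lies to the right of 0.

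The genes of protein folding in the ER rose without exception. All 43 members tested passed the test upward, 32 of them past a log2 fold change of 1, with a median of 1.46 and a lowest value of 0.59 for SEL1L, a subunit of the ER degradation complex. Their summed share of the reads was 0.879 to 0.922% in the DMSO group and 2.11 to 2.30% in the R1881 group. HSPA5 (BiP), the main ER chaperone and sensor of unfolded proteins, had 637, 661 and 698 CPM as the lowest, median and highest DMSO values and 2036, 2256 and 2387 CPM with R1881. This corresponded to a log2 fold change of 1.75 ± 0.03 with no overlap. The largest changes were those of SDF2L1 and DNAJC3, cofactors of HSPA5, with 2.83 ± 0.17 and 2.52 ± 0.06, and of DNAJC10, an ER disulfide reductase, with 2.39 ± 0.04. XBP1, which encodes a transcription factor of the unfolded protein response, rose by 1.07 ± 0.03 and the disulfide isomerase gene PDIA4 by 1.99 ± 0.04. Splice forms of XBP1 cannot be told apart in counts per gene.

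The ER stress element, CCAAT and CCACG around 9 free letters, with 10 fixed letters and searched on both strands without mismatch, is bound by factors of the unfolded protein response. It was found in the 250 bases before the start in 22 of 27305 promoters of the RefSeq table, or 0.0806%. The share was 0.121% among the 11529 promoters of tested genes. Of the 43 ER genes, 39 had a promoter there and 7 of these held the element. The 8 matches in these genes are shown to let the spacer letters be compared, with capitals for the fixed letters, each written in the direction of the element and with its first base counted back from the start on the gene's strand.
CRELD2, 80 bases before the start: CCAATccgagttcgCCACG
HSPA5, 66 bases before the start: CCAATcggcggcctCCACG
HSP90B1, 194 bases before the start: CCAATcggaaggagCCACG
HSP90B1, 89 bases before the start: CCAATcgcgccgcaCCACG
CANX, 151 bases before the start: CCAATcttcacactCCACG
CALR, 225 bases before the start: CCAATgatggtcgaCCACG
XBP1, 52 bases before the start: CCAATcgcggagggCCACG
ERO1B, 243 bases before the start: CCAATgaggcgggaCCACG
The matches of CRELD2, HSP90B1 (the one nearer the start), CALR and ERO1B lie on the strand opposite to the gene. The promoter of HSPA5 (GRCh38.p14, chr9:125241344-125241593, minus strand) is given in full, with the element in capitals, as that of the main ER chaperone, chosen after the values were seen.
HSPA5 promoter: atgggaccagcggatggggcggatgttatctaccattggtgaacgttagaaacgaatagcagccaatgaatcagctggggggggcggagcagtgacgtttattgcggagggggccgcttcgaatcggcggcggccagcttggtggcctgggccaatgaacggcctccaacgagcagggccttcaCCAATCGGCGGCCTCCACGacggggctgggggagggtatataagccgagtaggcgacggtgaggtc
Among the 11529 tested genes with a promoter in the table, 14 had the element, and the other tested genes could not be searched. Of these 14, 12 rose past a log2 fold change of 1 and 2 fell slightly. Besides the 7 ER genes above, those that rose were FICD, an enzyme that modifies HSPA5, with 3.15, the antiviral factor gene TRIM5 with 1.30, TMEM120A with 1.14, the translocon-associated SERP1 with 1.11 and the glycosyltransferase gene ALG12 with 1.05. The falls were those of EIF2A with 0.18 and ZNF17 with 0.20. ALG12 and CRELD2 share 1 element between their starts, as do SERP1 and EIF2A, so the 14 genes are not separate cases. A match is a description of letters and not a measured binding site.

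Transport between ER and Golgi rose together with folding. Of 35 COPI and COPII genes tested, 34 rose, 22 of them past 1, and ARF5 had -0.12, which did not pass the test. The median was 1.10. KDELR3 and KDELR2, receptors that return chaperones to the ER, rose by 2.99 ± 0.11 and 1.55 ± 0.05, and the COPII coat gene SEC24D by 2.60 ± 0.04 from 28.6 to 31.2 CPM to 168 to 194 CPM. The cargo receptor gene TMED9 rose by 1.86 and the coat subunit gene COPA by 0.58. None of the 30 promoters available for this list held the ER stress element.

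**Figure D4:**
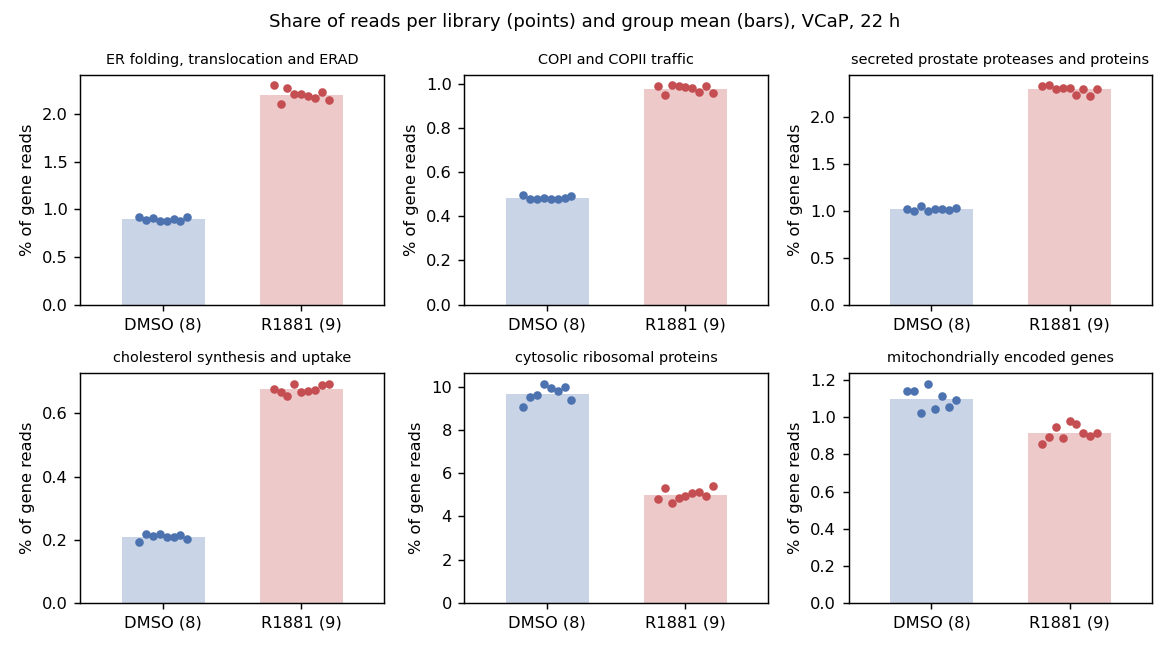
Share of all gene reads taken by 6 gene lists in each library (points, in percent) with the group mean as a bar, for 8 DMSO and 9 R1881 libraries. The groups do not overlap in any panel, and ribosomal proteins lie between 9.05 and 10.1% with DMSO and between 4.59 and 5.41% with R1881.

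The ATF4 branch of the stress response moved less than the folding genes. Of 28 members 17 rose, 5 of them past 1, and 6 fell, with a median of 0.29. ATF4 itself rose by 0.26, the amino acid enzyme gene ASNS by 0.16 with overlapping groups and no call with library totals, and the stress factor gene DDIT3 (CHOP) by 0.59. ATF5, GPT2 and TRIB3 had the largest rises with 2.16, 1.49 and 1.10, and the secreted glycoprotein gene STC2 fell by 1.35. Aminoacyl-tRNA synthetases, which load tRNAs, rose in 13 and fell in 5 of 20 cases with a median of 0.38, from 1.20 for MARS to -0.57 for QARS. Enzymes that supply sugars for glycoproteins rose in 18 and fell in 8 of 30 cases. UAP1, which makes the donor UDP-N-acetylglucosamine, rose by 2.11 ± 0.04 from 89.2 to 116.5 CPM to 403 to 484 CPM, and GNE, the first enzyme of sialic acid synthesis, by 2.53 ± 0.04. The sialyltransferase gene ST6GALNAC1 rose by 3.11 and GNPNAT1 by 0.88, while GALNT6 fell by 2.02. B3GNT6, the core 3 synthase of mucin-type glycans, had 16 to 34 reads per library with DMSO and 0 in all 9 R1881 libraries, at least 73.4-fold lower against a floor of 3 reads over the group.

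Lipid synthesis was the other broad rise. Of 31 genes of cholesterol synthesis and uptake, 27 rose, 19 of them past 1, and ABCA1, which exports cholesterol, fell by 1.22. The median was 1.19. INSIG1, a sensor that holds sterol synthesis back when sterols are abundant, lay at 70.9, 77.4 and 86.6 CPM as the lowest, median and highest DMSO values and at 699.8, 752 and 821 CPM with R1881, a log2 fold change of 3.27 ± 0.05. The groups did not overlap. STARD4, a sterol carrier, rose by 3.78 ± 0.08 and the isoprenoid enzyme gene IDI1 by 2.93 ± 0.05.

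Fatty acid synthesis and activation genes rose in 18 and fell in 9 of 29 cases, with a median of 0.71. ACSL3, which activates fatty acids at lipid droplets, had 353, 372 and 425 CPM with DMSO and 4278, 4742 and 5385 CPM with R1881, a log2 fold change of 3.64 ± 0.05. DBI, which carries acyl-CoA, and the desaturase gene FADS2 rose by 3.41 and 2.93. FASN, the fatty acid synthase, rose by 2.72 ± 0.26 and ACACA, the enzyme before it, by 1.34 ± 0.03. FASN varied widely within groups, from 125 to 384 CPM and from 848 to 2488 CPM, and the groups still did not overlap. FABP5 and DGAT2 fell by 2.90 and 1.44. Fatty acid oxidation genes were more mixed, with 19 of 31 up, 8 down and a median of 0.27. AMACR, a peroxisomal racemase used as a stain for prostate cancer, rose by 3.43 ± 0.07 from 3.46 to 5.21 CPM to 39.7 to 50.0 CPM, and CPT1A, the mitochondrial gatekeeper, by 0.84. ACADL rose by 2.04 and EHHADH fell by 1.70, both at levels below 4 CPM.

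Polyamines are made in large amounts by the prostate. Of 15 genes of their metabolism, 9 rose and 3 fell, with a median of 0.64. ODC1, the first enzyme of the pathway, lay at 234, 238 and 251 CPM with DMSO and at 2075, 2119 and 2350 CPM with R1881, by 3.17 ± 0.04 higher on the log2 scale. The spermine synthase gene SMS and the acetyltransferase gene SAT1, which act on opposite sides of the balance, rose by 2.61 and 2.68, and AMD1 and SRM by 0.70 and 0.64. The arginase gene ARG2 fell by 1.79 ± 0.04.

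The cell cycle lists did not move as 1 group. Of 37 genes of DNA replication, 23 rose and 5 fell, with a median of 0.18. The licensing factor gene CDC6 and the transcription factor gene E2F1 rose by 1.23 and 1.37, GINS3 by 0.81 and the polymerase clamp gene PCNA by 0.49, and the primase gene PRIM1 fell by 1.41. For the helicase subunit gene MCM2 the value was 0.01. Of 30 genes of G2 and mitosis, 27 fell and BIRC5 rose by 0.16, with a median of -0.52, and their share of the reads was 0.285 to 0.328% with DMSO and 0.185 to 0.208% with R1881. TOP2A, the topoisomerase that untangles chromosomes, lay between 681 and 844 CPM with DMSO and between 386 and 484 CPM with R1881, and fell by 0.79 ± 0.04. The phosphatase gene CDC25C fell by 1.06, the checkpoint kinase gene TTK by 0.83 and the proliferation marker MKI67 by 0.37, while CDK1 and CCNB1 fell by 0.29 and 0.27. With library totals the replication genes fell in 8 cases and BIRC5 no longer passed the test.

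CDK inhibitors and G1 cyclins changed in both directions, 12 up and 8 down of 20. CDKN1A (p21), which halts the cycle, rose from 16.6, 18.0 and 20.5 CPM to 67.0, 73.4 and 82.3 CPM, by 2.03 ± 0.06, and the cyclin gene CCND1 by 1.05 ± 0.02. GADD45G and GADD45B rose by 2.20 and 1.72 from below 2 CPM, and CDKN1B (p27), CDKN2C and GADD45A fell by 0.35, 1.10 and 1.15. DNA repair genes were split, 17 up and 12 down of 34, with a median of 0.13. LIG4, the ligase of end joining, rose by 2.28 ± 0.06 from a median of 9.70 to 47.8 CPM, and ATR and XRCC4 by 0.85 and 0.66. RAD51B, BARD1 and PALB2, genes of homologous recombination, fell by 1.39, 1.31 and 1.05.

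Genes of ribosome production fell. Of 30 members of the MYC network and ribosome biogenesis, 22 fell and the other 8 did not pass the test, with a median of -0.38. MYC, the growth-promoting transcription factor, had 291, 330.5 and 340 CPM with DMSO and 49.0, 52.9 and 60.9 CPM with R1881, a log2 fold change of -2.58 ± 0.06. Its antagonist MXI1 fell by 3.32 ± 0.04, its partner MAX by 0.43 and the biogenesis factor gene WDR12 by 1.05. The cytosolic ribosomal proteins, a list added after the values were seen, fell in 76 of 77 cases with a median of -0.79, and 9 of them passed -1. Their values were close together, from -1.29 for RPL12 and -1.22 for RPL3 to -0.26 for RPS27A, with RPS26 at 0.12 as the only one that did not pass the test, which it passed at 0.16 without the libraries that lay apart. The share of the reads that mapped to them was 9.05 to 10.1% with DMSO and 4.59 to 5.41% with R1881, and many of these genes have pseudogenes that can take their reads. Mitochondrially encoded genes were lower in 7 and higher in 1 of 13 cases with no change past 1, from -0.31 for MT-CO3 to 0.35 for MT-ND5.

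The MHC class I and interferon-stimulated genes did not move together. Of 27, 10 rose and 11 fell. The antigen-presenting genes HLA-B, HLA-C and B2M rose by 2.26, 2.25 and 1.70, although reads may be shared between HLA genes. The antiviral genes IFIT3, OAS1 and MX1 fell by 3.22, 1.74 and 1.73 from levels below 4 CPM. Of the markers of other cell types, KRT14 and KRT15 of basal cells rose from at most 5 and 3 reads per library. The other 2 basal markers tested did not pass the test, and VWF of endothelium rose by 2.68 from 6 to 11 reads. Of the fibroblast markers, LUM, PDGFRB and COL3A1 fell and COL1A1 did not pass the test, and their summed share fell from 0.00284 to 0.00320% to at most 0.000222%. The part of other cells in these values was not tested.

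The 22 h response was set against the separate 8 h groups by an interaction contrast, which asks whether the R1881 effect differs between the time points. It passed for 60.4% of the tested genes, and 66.9% were called at 8 h. Of the genes called at 22 h, 62.3% had been called at 8 h in the same direction, 10.4% in the opposite direction and 27.2% not at all. Among those past a log2 fold change of 1 at 22 h, these shares were 75.6%, 4.61% and 19.8%.

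**Figure D5:**
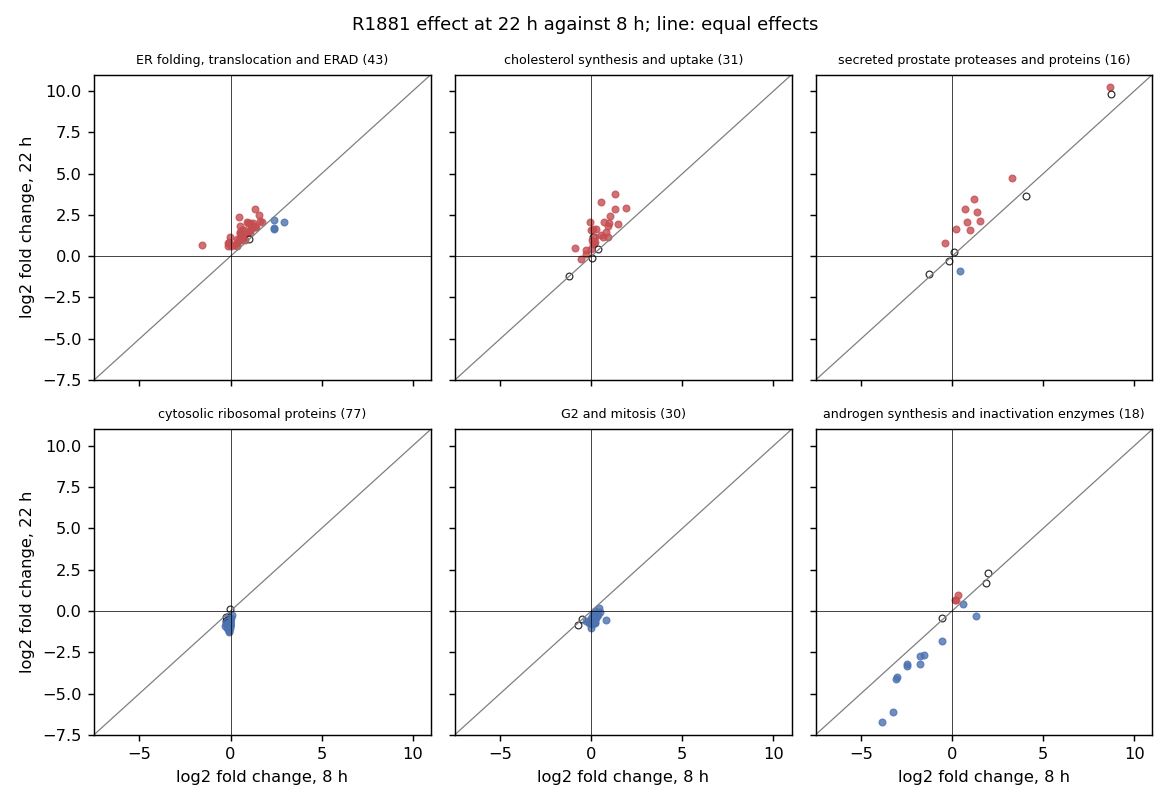
Log2 fold change at 22 h (vertical axis) against that at 8 h (horizontal axis) for the tested members of 6 gene lists, with a grey line where both are equal. Red and blue points are genes whose effect was higher or lower at 22 h in the interaction test and open points are those that did not pass it. Cholesterol genes lie above the line and genes of mitosis and ribosomal proteins below it.

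Most cholesterol genes had a higher R1881 effect at 22 h than at 8 h. At 8 h 16 of 31 had risen and 5 had fallen, with a median of 0.22 against 1.19 at 22 h. The effect was higher at 22 h for 27 of 31, while the other 4 did not pass the interaction test. INSIG1 moved from 0.55 to 3.27 and FADS2, of the fatty acid list, from 0.20 to 2.93. The ER list had a median of 0.79 at 8 h, with 38 of 43 members higher and 4 lower at 22 h. Ribosomal proteins had a median of -0.09 at 8 h, when 30 had fallen, and 71 of 77 were lower at 22 h. The genes of G2 and mitosis had a median of 0.09 at 8 h, with 16 up and 3 down, and the effect was lower at 22 h for 28 of 30. The 8 h median is small, and whether its sign depends on the scaling was not tested.

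Single genes differed in how much of the change was present at 8 h. The 8 h values of FKBP5 and NCAPD3 were 5.21 and 5.24, and their effects were higher at 22 h, by 0.29 and 0.45. KLK3 was at 1.20 at 8 h, and its effect was higher by 2.24 ± 0.09 at 22 h (adjusted p = 1.22e-29 in the interaction test). NAALAD2 was at -1.02 at 8 h and lower by 4.68 ± 0.13 at 22 h, and LINC00920 was at 0.20 and higher by 4.16. ERRFI1 and the kinase gene SGK1 were higher at 8 h, at 5.19 and 4.24, than at 22 h, at 3.17 and 1.14, with SGK1 chosen after the values were seen. ACPP was lower with R1881 at 8 h, by 0.41, and higher at 22 h, by 0.80, and HOXB13 went from -0.97 to 0.25. For 42 genes the effect passed an absolute log2 fold change of 1 at both times with opposite signs. PDK4, which restrains pyruvate oxidation, was among them with 4.93 and -1.72, the latter from at most 7 reads per library. The ERK inhibitor gene SPRY4, at -5.07 at 8 h and 0.64 at 22 h, is outside these 42 genes and was also chosen after the values were seen. At 22 h PDK4 did not pass the test with replicates 1 to 5 only, and SPRY4 did not pass with replicates 6 and above only.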

How the data were processed

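RNA of VCaP cells was sequenced by the authors from stranded poly(A) libraries (TruSeq, HiSeq2500, single-end reads of 50 bases). According to the submitters' processing notes, reads were demultiplexed with bcl2fastq 2.17, aligned with STAR to GRCh38 and summed per gene with featureCounts of Subread, and DESeq2 was used. Further versions, the annotation, and how strand and multiply matching reads were handled are not given in the sources used here, so values of near-identical, overlapping and antisense genes are uncertain. The deposited values are raw counts without normalization in 1 table with 112 sample columns. All 55 VCaP columns were used, and the LAPC4 columns were not. The study's methods give 5 biological replicates per condition, whereas the labels assign 8 and 9 libraries to these groups, and all were used. No library pair within a group agreed within sampling noise, as the chi-square per degree of freedom over genes was between 1.66 and 26.3.

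A gene was kept if 4 or more of the 55 VCaP libraries held 10 or more of its reads, library sizes were scaled by TMM, and the 8 groups were fitted together with glmQLFit and glmQLFTest (edgeR 4.0.16, R 4.3.3), checked on simulated data. Calls required a Benjamini-Hochberg adjusted p under 0.05. The SE was taken as the log2 fold change over the root of its F statistic, and the prior count was 2. The precision of each value depends on the spread between libraries and on the reads per library, 12951648 to 22198990 in genes. Alternatives were DESeq2 1.42.0, library totals, no filter, filterByExpr, a fit of the compared groups only, replicates 1 to 5 or 6 and above, the replicate number as a block and a GC slope per library. The GC slope centred on its group mean and a fit without DMSO replicate 1 and R1881 replicate 3 were added after seeing the data. The GC slopes rest on 15204 of the 19266 tested genes, or 78.9%, below the 80% set as a minimum, so both GC checks are void as checks of single lists.

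Members and lists were chosen with earlier results of these data known. The named genes are KLK2, KLK3, TMPRSS2, FKBP5 and ERG, the 10 largest rises and falls among called genes with a mean CPM above the median and groups that do not overlap, the 5 largest rises and falls in mean CPM, and from each list its first 3 members and up to 3 of the largest rises and falls. Not every gene that this rule allows is named, and some that it selects are not reported here. For genes outside it the text says that they were picked with their values known, and the genes with the ER stress element were taken by the element. Positions are from GENCODE 44 on GRCh38, and promoters are from RefSeq on GRCh38.p14.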

Additional observations from a re-analysis of the deposited data

Results flagged for a closer look

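In 24 of the 444 pairs of a gene and a group examined, 1 library lay farther from the others than Dixon's limit allows, while chance gives about 1 in 20, or 22.2 pairs. All values in this paragraph are CPM. Replicate 3 of R1881 was the library apart for MKI67 (172), TTK (41.2), SMC1A (149.9), STAG2 (167) and ASNS (83.3), and it was the highest of the 9 for each of these genes. In the other R1881 libraries, replicate 1 stood apart for CCND1 (446), replicate 2 for FKBP4 (423) and BMP2 (0.140), replicate 4 for ATF4 (315), replicate 6 for CREB3L4 (423), replicate 7 for WNT10B (1.30), replicate 8 for LRRN1 (0.250) and replicate 9 for SPINK1, with 0 reads. Among the DMSO libraries, replicate 1 stood apart for CDC25C (40.3) and STARD4 (6.59), replicate 2 for IGFBP5 (6.25) and GADD45B (1.52), replicate 4 for FOS (0.458), and replicate 5 for LGR5 (0.362) and KRT14 (0.258). Replicate 6 with DMSO stood apart for CALR (1085) and KDELR3 (0.961), replicate 7 for OAS1 (2.37) and replicate 8 for LINC00920 (1.89).

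The effect of R1881 at 22 h differed from that at 8 h for 21 of 22 genes examined one by one, by the interaction term of edgeR's quasi-likelihood test. These genes were KLK2, KLK3, TMPRSS2, FKBP5 and ERG and those named above among the largest rises and falls at 22 h. Most were thus picked by their 22 h values, which favors a larger effect at that time. In all, 11633 genes, or 60.4% of those tested, had such a difference. The differences given here are the log2 fold change at 22 h minus that at 8 h. Among the induced genes the difference was 2.24 for KLK3, 0.57 for KLK2, 1.45 for TMPRSS2, 0.29 for FKBP5, 0.47 for ERG and 1.03 for STEAP4. It was 1.58 for ORM2, 3.19 for CST1, 0.45 for NCAPD3 and 4.16 for LINC00920. CTD-2224J9.8 had a smaller effect at the later time, with a difference of -0.51. The repressed genes had a lower log2 fold change at 22 h, with a difference of -4.68 for NAALAD2, -3.97 for ALB, -3.82 for MIR2052HG, -3.47 for LUM, -3.12 for NOV, -2.83 for WNT2, -2.49 for GPR85, -2.14 for IGFBP3, -2.10 for SHH and -1.93 for LRRN1. The labels give the R1881 and DMSO libraries at each time as separate samples, and no library was used at both times.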

How the results depend on the processing

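The number of called genes, 14910, lay between 12691 and 16445 under the alternatives computed, the lowest with replicates 6 and above only and the highest without the filter on low counts, including 14774 with DESeq2 and 14773 with the replicate number as a block. Without the filter on low counts, 4280 genes fell past 2-fold instead of 2762. Library totals in place of TMM moved the median log2 fold change of all genes by -0.11, and with them 8 steroid receptor chaperones rose and 3 fell (13 and 1), 8 DNA replication genes (5), 8 condensin and cohesin genes (5), 3 cholesterol genes (1), 1 COPI and COPII gene (0) and 1 basal marker (0) fell, and 0 G2 and mitosis genes (1) rose. With replicates 1 to 5 only, 0 chaperones, 2 DNA replication genes, 3 condensin and cohesin genes and 4 mitochondrially encoded genes (7) fell, and with replicates 6 and above only, 2 chaperones and 3 mitochondrially encoded genes fell. No filter gave 1 basal and 1 endothelial marker that fell (0 and 0). With the GC slope as a covariate, 1 gene of the MYC and ribosome biogenesis list and 1 ribosomal protein gene rose (0 and 0) and 1 COPI and COPII gene fell. With the slope centred on its group mean, 5 condensin and cohesin genes (3) rose, and 1 COPI and COPII gene and 3 cholesterol genes fell. Without DMSO replicate 1 and R1881 replicate 3, which lay apart, 1 ribosomal protein gene (RPS26) rose (0), 14740 genes were called, LEF1 passed and KLF9 did not. FKBP4 (0.03) had -0.079 with library totals, and MCM2 had -0.091 with the GC slope covariate. Of the other single genes named, ASNS, BIRC5 and HOXB13 did not pass with library totals, and KLF9 did not pass without a filter, with the block, in either subset or with the GC slope covariate. AXIN2 and ZNF17 did not pass in either subset, HOXB13, HSP90AB1 and PDK4 not with replicates 1 to 5, and ASNS, INPP4B and SPRY4 not with replicates 6 and above. LEF1, ARF5, COL1A1 and RPS26, not called, passed under 1 or more alternatives. The subsets hold fewer libraries, and the other causes were not tested.

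Same-numbered R1881 and DMSO libraries deviated together weakly, with r from -0.0768 to 0.216 over 8 pairs. Of these, 3 correlated best with their own number, replicates 1, 2 and 4, with r of 0.166, 0.216 and 0.146. The labels do not say whether the numbers pair the samples, and correlations this weak cannot decide it. With the block, 7039 genes rose and 7734 fell, 10526 genes differed between the times (11633), 1 COPI and COPII gene (ARF5) fell, and KLF9 did not pass.

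Depth limits the low genes: a library of 12951648 reads cannot show changes in genes with a few reads, and a count of 0 over a group allows up to 3 reads.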

Other observations

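Some genes were detected in 1 group only. Among the tested genes, 33 had 0 reads in every library of 1 group and more than 3 reads over the other group, 22 of them with R1881 at 0 and 11 with DMSO at 0. They were found by this pattern, so it is a description, and their levels are low. PGC, which encodes the aspartic protease progastricsin of stomach and prostate, had 0 reads in the 8 DMSO libraries and 65 to 130 in each of the 9 R1881 libraries, at least 250.0-fold higher against a floor of 3 reads over the DMSO group. AGBL1, which encodes a cytosolic carboxypeptidase, had 47 to 79 reads per library with DMSO and 0 with R1881, at least 182-fold lower. UBTFL1, UBTFL2 and UBTFL7, related copies of a nucleolar transcription factor gene that may share reads, went from 44 to 84, 36 to 67 and 12 to 25 reads per library to 0, at least 174-fold, 137-fold and 55.2-fold lower.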
